A study of Mus musculus with 4 samples.

Results

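The early growth response genes Egr1, Egr2, Egr3 and Egr4 and the nuclear receptor genes Nr4a1, Nr4a2 and Nr4a3 were followed in mouse brain at 6 h of permanent middle cerebral artery occlusion, which models stroke. The members were the probes whose RefSeq accession belongs to one of these 7 symbols, and all 7 were on the array, among 16534 genes that could be given a symbol. Each gene had 1 probe, which was printed in 10 spots for Egr2 and in 1 spot for each of the others.

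Both families are immediate early genes, whose transcription starts within minutes of a stimulus and needs no new protein. The Egr proteins bind GC-rich DNA through zinc fingers, and the Nr4a proteins are orphan nuclear receptors that act without a known natural hormone, so that their abundance sets much of their activity. In neurons, calcium entry and MAP kinase signalling act on the promoters of these genes through CREB, which binds cyclic AMP response elements, and through serum response factor, which binds CArG boxes.

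The animals were male C57BL/6J mice aged 9 weeks, occluded with an intraluminal filament under sevoflurane and given saline into the ventricle right after. The tissues compared numbered 4: ischemic core (the territory with the deepest loss of flow), ischemic penumbra (the zone around it), and the corresponding healthy core and healthy penumbra, all labelled as 6 h and saline. The series' design text gives 3 mice per group, with neurological grades G1 and G2; the labels used here name no pooling and no source animal or hemisphere for the healthy pieces. Each region was measured on a pair of 2-color arrays with ischemic and healthy RNA in opposite dyes. Cy5 carried the ischemic RNA for core replicate 1 and for penumbra replicate 3; Cy3 carried it for the other array of each pair, core replicate 2 or penumbra replicate 4.

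Nothing shows that both arrays of a pair held different RNA extracts, so a pair counted as 1 replicate. Ischemia thus has no replicate check here, and errors are SDs over the 2 arrays of a pair or over the 2 dyes. A gene was called higher or lower where the mean of the pair was at least 2-fold and each array was at least 1.5-fold the same way. Ratios are log2, ischemic over healthy, relative to the bulk of all features; the probe signals were raised by an added constant of 50 before the ratio was taken, which draws the ratios of dim probes toward 0. Median spot signals ran from 192 to 225.5 in Cy3 and from 284 to 310 in Cy5, over local backgrounds of 64 to 66 and 70 to 71. The share of spots well above background was 76.1% to 79.4%, with 0 saturated.

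The dissected pieces held brain tissue of different make-up. All 6 listed neuron markers, among them Snap25 and Rbfox3, were well above background in each of the 4 tissues. Striatal genes were lower in the core piece: 9 of 10 were called lower in healthy core than in healthy penumbra, with a median of -1.85, and 8 of 10 in ischemic core than in ischemic penumbra. All 8 choroid plexus genes were called lower in the core piece in both comparisons. Of 6 cortical genes, 1 was called higher in the core piece in both comparisons, the upper-layer gene Cux2, and the list medians were 0.41 and 0.57.

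Promoter sequence was taken from RefSeq (GRCm38.p6), whose table held 5 of the 7 members. Egr1, which was called, and Egr3 were absent from it, so their promoters were not searched for any site. Shown here are the 250 bases before the transcription start of 3 genes that were called higher in ischemic tissue (Egr2, Egr4, Nr4a1) and of a bright gene that was not called (Nr4a2), so that the sites of the 2 groups can be read side by side. They lie at chr10:67537619-67537868 (plus strand, the third of 5 start sites listed for Egr2), chr6:85513590-85513839 (minus strand), chr15:101266596-101266845 (plus strand) and chr2:57124004-57124253 (minus strand), each read 5′ to 3′ in the direction of the gene. Capitals mark the CArG box, and the core TGACG of the cyclic AMP response element, which reads CGTCA where it lies on the opposite strand; both motifs were searched on both strands.
Egr2: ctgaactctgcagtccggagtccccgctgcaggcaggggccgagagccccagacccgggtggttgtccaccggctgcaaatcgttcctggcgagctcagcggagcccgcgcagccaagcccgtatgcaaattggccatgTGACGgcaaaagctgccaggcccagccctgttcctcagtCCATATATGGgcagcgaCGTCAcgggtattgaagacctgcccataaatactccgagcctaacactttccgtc
Egr4: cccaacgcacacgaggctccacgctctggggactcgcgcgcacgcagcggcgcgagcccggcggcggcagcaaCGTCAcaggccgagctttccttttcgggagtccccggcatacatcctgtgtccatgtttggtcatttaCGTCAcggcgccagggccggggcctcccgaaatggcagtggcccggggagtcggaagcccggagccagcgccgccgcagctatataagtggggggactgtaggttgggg
Nr4a1: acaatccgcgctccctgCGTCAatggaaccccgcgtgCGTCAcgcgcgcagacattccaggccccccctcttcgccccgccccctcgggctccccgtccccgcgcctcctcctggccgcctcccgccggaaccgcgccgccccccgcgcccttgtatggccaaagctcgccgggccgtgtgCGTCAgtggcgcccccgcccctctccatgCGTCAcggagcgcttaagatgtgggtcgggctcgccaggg
Nr4a2: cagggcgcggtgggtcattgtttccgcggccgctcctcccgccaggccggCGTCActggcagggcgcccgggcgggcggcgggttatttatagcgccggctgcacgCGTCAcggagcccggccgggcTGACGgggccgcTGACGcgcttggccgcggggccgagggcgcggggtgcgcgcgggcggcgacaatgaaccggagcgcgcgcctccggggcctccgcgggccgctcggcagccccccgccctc

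The window of Egr2 held a CArG box, CCATATATGG, from 72 to 63 bases before the start, between 2 TGACG sites. The same box lay in the windows of the last 2 start sites of Egr2, the second start site had another, CCTTTTTTGG, and the first had none. No exact CArG box, CCWWWWWWGG with W for A or T, was found in the windows of Egr4, Nr4a1, Nr4a2 or Nr4a3. Letters that differ from it in 1 place were not counted, such as ccatgtttgg in Egr4 and ccttgtatgg in Nr4a1. A CArG box was present in 1.47% of 32851 promoter windows of the same length. The TGACG site was found 2 times in Egr4, and 4 times each in Nr4a1, Nr4a2 and Nr4a3, and 17.8% of all windows held it. The windows of the first and second start sites of Egr2 had none. The full element TGACGTCA, present in 1.55% of windows, was in none of those listed for these 5 genes. The Egr binding letters GCGNGGGCG, searched on both strands, were found 1 time in Nr4a1 and 1 time in Nr4a2, against 4.7% of all windows. The Nr4a binding letters AAAGGTCA, present in 1.34% of windows, were in none of the windows of these genes. Nr4a1, which was called, and Nr4a2, which was not, held TGACG sites in equal number. So did Nr4a3, whose call depended on the signal processing. Whether these sites bear on the ratios was not tested. These matches describe letters in a window and not bound sites.

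Which members differ between ischemic and healthy tissue was the first comparison. In the core, 4 of 7 members were called higher, against 0.310% of all 24533 features measured there, and the same 4 were called higher in the penumbra, against 0.241% of 24925. No member was called lower, where 0.00401% of features were in the penumbra and 0 in the core. The 4 genes were Egr1, Egr2, Egr4 and Nr4a1, with folds from 2.72 to 8.76 in the core and from 2.97 to 7.93 in the penumbra. Egr3, Nr4a2 and Nr4a3 were called in neither region, and Nr4a3 was not well above background in healthy tissue. Since the members were chosen with earlier results of these data known, these counts describe the family and test nothing.

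Egr2, a zinc finger factor known for its part in hindbrain patterning and peripheral myelination, had the highest ratio of the 7 in both regions. Its raw median signal, averaged over 10 spots, was 3081 in ischemic against 246.8 in healthy RNA on core replicate 1, and 2205 against 360.1 on core replicate 2. On penumbra replicate 3 it was 2787 against 299.4, and on penumbra replicate 4 it was 2137 against 459.6. The ischemic channel was the brighter one on all 4 arrays, whichever dye it carried. Log2 ratios were 3.08 and 3.18 on the core arrays, a mean of 3.13 ± 0.07 (SD, n = 2 arrays) or 8.76-fold. On the penumbra arrays they were 2.89 and 3.08, a mean of 2.99 ± 0.14 or 7.93-fold. By size, Egr2 stood at place 7 from the highest of all features in the core and at place 6 in the penumbra.

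The 10 spots of the Egr2 probe give the measuring error within an array. On core replicate 1 they ran from 2.96 to 3.22 and on core replicate 2 from 3.02 to 3.31. On penumbra replicate 3 they ran from 2.77 to 2.98 and on penumbra replicate 4 from 2.99 to 3.18. The SD between spots was 0.06 to 0.08 log2 on each array. The medians of the arrays with ischemic RNA in Cy3, 3.19 and 3.06, lay above those with it in Cy5, 3.11 and 2.90, within each region.

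**Figure D1:**
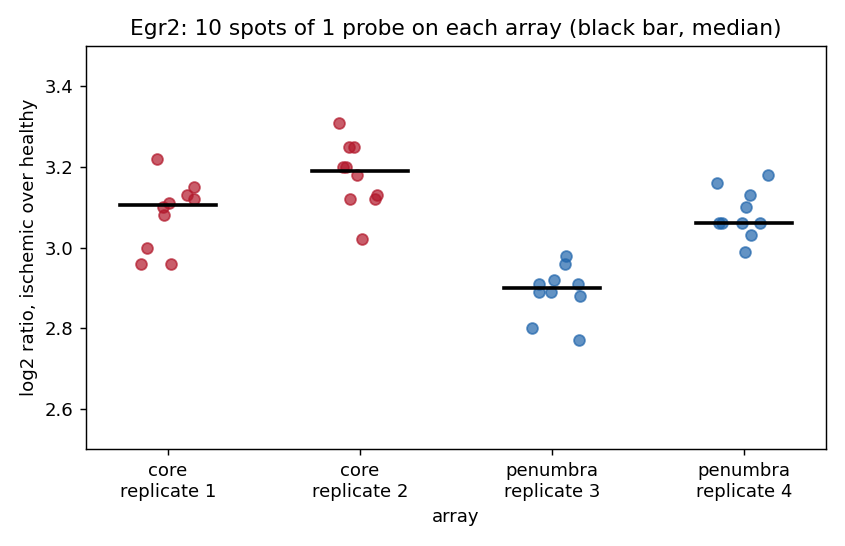
Log2 ratio of ischemic over healthy tissue (vertical axis) for each of the 10 Egr2 spots on each array (horizontal axis), with core in red, penumbra in blue and the median of the spots as a black bar. All spots lie between 2.77 and 3.31, and within a region the array with ischemic RNA in Cy3 has the higher median.

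Egr1, the member most used as a marker of neuronal activity and tied to synaptic plasticity, was a bright probe in all tissues. Its raw signal was 53665 in ischemic and 8847 in healthy RNA on core replicate 1, and 34184 and 20332 on core replicate 2. On penumbra replicate 3 it was 41205 and 9061, and on penumbra replicate 4 it was 25106 and 18850. After normalization the log2 ratio was 1.77 and 1.58 in the core, with a mean of 1.68 ± 0.14 (SD, n = 2 arrays), or 3.19-fold. In the penumbra it was 1.64 and 1.51, with a mean of 1.57 ± 0.09, or 2.97-fold. The ischemic channel was the brighter one on all 4 arrays, and every normalized ratio was above 2-fold.

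Egr4, expressed mainly in neurons, had ratios close to those of Egr1. Its raw signal was 35242 in ischemic and 6232 in healthy RNA on core replicate 1, and 23612 and 13042 on core replicate 2. On penumbra replicate 3 it was 43981 and 7671, and on penumbra replicate 4 it was 19432 and 12345. The log2 ratio was 1.72 and 1.62 in the core (mean 1.67 ± 0.07, SD, n = 2 arrays) and 1.98 and 1.70 in the penumbra (mean 1.84 ± 0.20). It stood at place 21 from the highest in the core and at place 10 in the penumbra.

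Egr3, a factor needed for muscle spindle development, was dim in every channel. Raw signals of its probe were 105.5 to 142.0 in ischemic and 98 to 126.5 in healthy RNA, over backgrounds of 60 to 76, and all 8 channels were marked well above background. The log2 ratio was 0.06 and 0.20 in the core (mean 0.13 ± 0.10, SD, n = 2 arrays) and 0.05 and 0.25 in the penumbra (mean 0.15 ± 0.14). The scanner software's processed signals, computed without that constant, gave means of 0.29 and 0.33, still under 2-fold. The groups were thus close on every array, at a signal not far from background.

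Nr4a1, induced by calcium signals in neurons and by inflammatory signals in myeloid cells, was the only member of its family that was called. Its raw signal was 64295 in ischemic and 11834 in healthy RNA on core replicate 1, and 40056 and 29563 on core replicate 2. On penumbra replicate 3 it was 52456 and 10738, and on penumbra replicate 4 it was 34255 and 25323. The log2 ratio was 1.58 and 1.30 in the core (mean 1.44 ± 0.20, SD, n = 2 arrays, 2.72-fold) and 1.71 and 1.57 in the penumbra (mean 1.64 ± 0.10, 3.12-fold). A scaling to the spike-in control transcripts, which lowers every ratio by 0.47 in the core and 0.46 in the penumbra, put Nr4a1 at 0.97 in the core and ended its call there.

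Nr4a2, known for its need in midbrain dopamine neurons and also made by neurons of the deep cortex and claustrum, was bright. Its ratio changed with the dye orientation of the array. Its raw signal was 16259 in ischemic and 11162 in healthy RNA on core replicate 1, and 13289 and 16002 on core replicate 2. On penumbra replicate 3 it was 6932 and 4842, and on penumbra replicate 4 it was 4742 and 6891, so that the Cy5 channel was the brighter one on each array. The log2 ratio was -0.22 and 0.47 in the core (mean 0.13 ± 0.49, SD, n = 2 arrays), with the arrays on opposite sides of 0. In the penumbra it was 0.11 and 0.41 (mean 0.26 ± 0.21). The core mean did not exceed its own SD.

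Nr4a3, the third receptor of the family, was close to the limit of the scanner. Its probe was well above background in the ischemic channel of all 4 arrays and in the healthy channel of none. Raw signals were 96, 87, 108.0 and 84 in ischemic RNA on replicates 1 to 4 over backgrounds of 63.5 to 75, and 67, 71, 67 and 78 in healthy RNA over backgrounds of 62 to 69.5. The healthy level is therefore only a limit. Nr4a3 entered both comparisons through its ischemic channels alone, which favors a positive difference, so the values that follow test nothing. Relative to the bulk of all features, with the added constant of 50, ischemic tissue stood 1.28-fold above that limit in the core and 1.33-fold in the penumbra. These values do not hold relative to the spike-in controls. In the penumbra the limit was the same as the probe's own healthy level, 6.14, so the value there is the ratio itself. As the limit, the healthy level on each array was the higher of the probe's own value and the lowest value of any probe well above background in that channel. On the normalized scale, where the added constant of 50 draws so dim a probe toward 0, the log2 ratios were 0.30 and 0.52 in the core (mean 0.41 ± 0.15, SD, n = 2 arrays) and 0.48 and 0.33 in the penumbra (mean 0.41 ± 0.11). With an added constant of 10 the means were 0.90 and 0.82. Relative to the spike-in controls the means at 50 became -0.07 and -0.06. With Agilent's processed signals they were 2.89 and 3.07 and Nr4a3 was called in both regions, again over healthy signals not well above background, so that the size of its difference is not known.

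**Figure D2:**
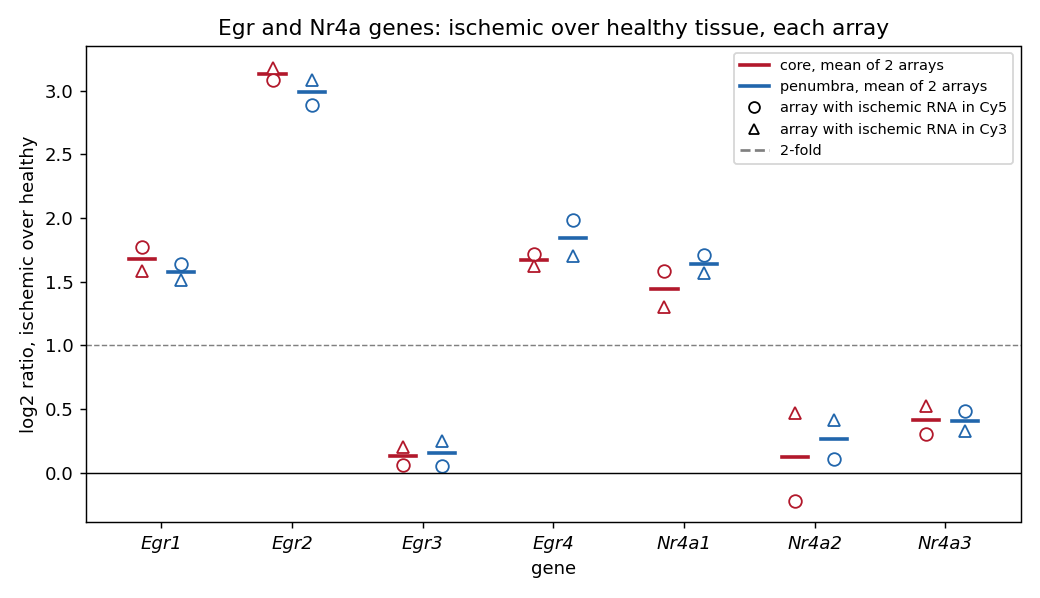
Log2 ratio of ischemic over healthy tissue (vertical axis) for each gene (horizontal axis) on each array, with core in red and penumbra in blue; circles are arrays with ischemic RNA in Cy5, triangles those with it in Cy3, bars the mean of the pair and the dashed line 2-fold. Egr1, Egr2, Egr4 and Nr4a1 lie above the line on all 4 arrays, and Egr3, Nr4a2 and Nr4a3 lie below it on all 4; for Nr4a3 the healthy signal was not well above background, so its points depend on the added constant.

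The 4 called genes had mean ratios from 1.44 to 3.13, while Egr3 and Nr4a2 had mean ratios from 0.13 to 0.26. Over all features the median ratio was -0.01 in both regions, and, without the outermost 2.5% of features on each side, ratios ran from -0.25 to 0.42 for core and from -0.32 to 0.45 for penumbra. Nr4a2 and Egr3 lay inside that range in both regions; the place of Nr4a3 against it is not known, since its healthy level is only a limit. A limma fit over arrays, whose error is array-to-array spread alone, gave adjusted p-values over all features of 0.000323 to 0.00482 for the 4 called genes in the core and of 0.000777 to 0.00326 in the penumbra. For Egr3 and Nr4a2 they were 0.585 and 0.832 in the core, and 0.371 and 0.452 in the penumbra. At an adjusted p of at most 0.05 and 2-fold, limma called the same 4 members in each region, against 0.306% and 0.241% of features.

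**Figure D3:**
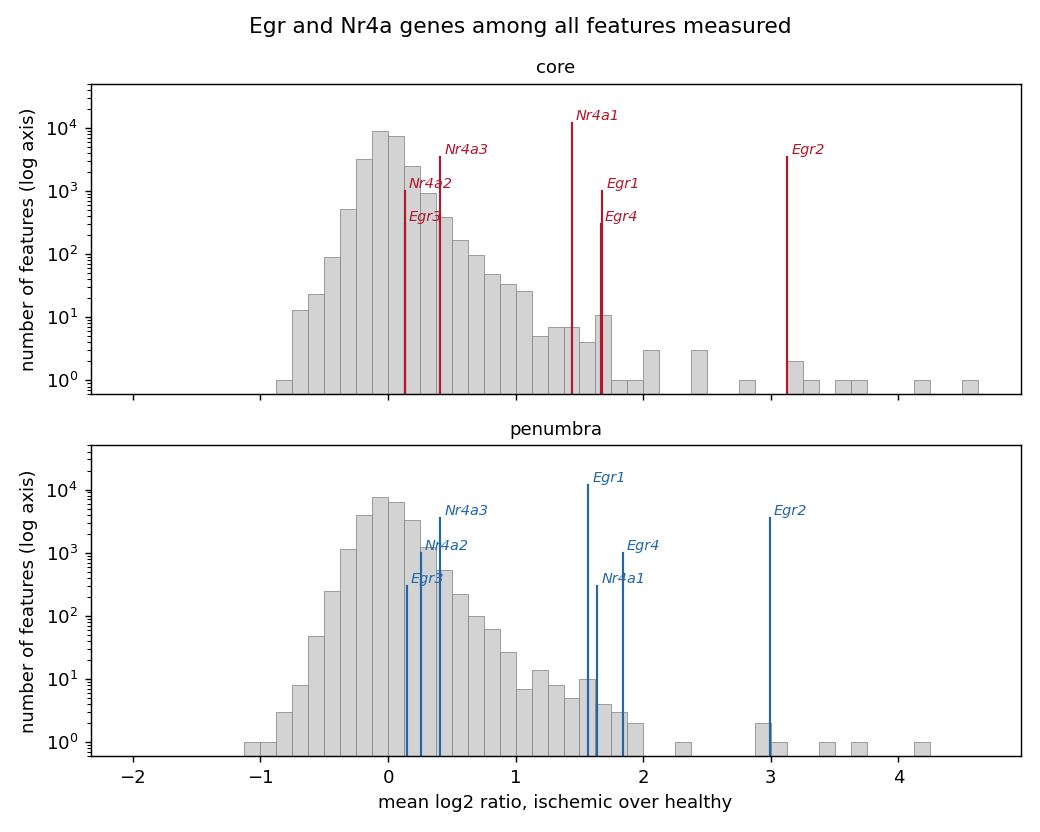
Number of features (vertical log axis) by mean log2 ratio of ischemic over healthy tissue (horizontal axis), with the core above and the penumbra below; colored lines mark the 7 genes, and the height of a line has no meaning. Egr1, Egr2, Egr4 and Nr4a1 lie in the sparse right tail, while Egr3 and Nr4a2 lie over the bulk of features; the line of Nr4a3 depends on the added constant.

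How the core response differs from that of the penumbra was the second comparison. None of the 7 members met the rule for a difference (at least 1 log2 unit, with both core arrays on one side of both penumbra arrays), which 0.0594% of 25259 features met. Core minus penumbra was 0.10 for Egr1, 0.14 for Egr2, -0.17 for Egr4 and -0.20 for Nr4a1. For Egr3 and Nr4a2 it was -0.02 and -0.14, and for Nr4a3, with only a limit for healthy tissue, no difference is given. The standard errors from limma over arrays were 0.11 to 0.24, with adjusted p-values of 1 for these 6 genes, where limma called 0.00792% of features.

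Arrays of the same dye orientation allow a closer look at this difference. The ratio of Egr2 was higher in the core by 0.19 between the arrays with ischemic RNA in Cy5 and by 0.10 between those with it in Cy3. For Egr1 the differences were 0.13 and 0.07, again above 0 in both orientations. For Egr4 they were -0.26 and -0.08, and for Nr4a1 -0.13 and -0.26, below 0 in both. For Egr3 they were 0.00 and -0.05, and for Nr4a2 -0.33 and 0.06, where the sign differed between the orientations. How many of all features kept the same sign in both orientations was not counted, so this agreement describes these genes and tests nothing. The core and penumbra arrays overlapped for 5 of these 6 genes; for Egr2 the lower core array and the upper penumbra array met at 3.08. Of all features, 30.4% had arrays that did not overlap.

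Levels in the 4 tissues were compared as single-channel log2 intensities within each dye. These levels order the tissues for 1 gene and cannot be set against those of another probe. Egr1 was at 13.62 ± 0.20 in healthy core (mean and SD over 2 dyes), 13.63 ± 0.19 in healthy penumbra, 15.20 ± 0.09 in ischemic penumbra and 15.30 ± 0.07 in ischemic core. The healthy pieces differed by 0.01 ± 0.02, within their spread, and the ischemic pieces by 0.10 ± 0.03. The step from healthy to ischemic penumbra was 1.57 ± 0.28.

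Egr2 had its lowest level in healthy core, 8.12 ± 0.07, followed by healthy penumbra at 8.44 ± 0.03. Ischemic core was at 11.25 ± 0.00 and ischemic penumbra at 11.43 ± 0.17. The level in the penumbra piece was the higher one in healthy tissue (by 0.32 ± 0.10) and in ischemic tissue (by 0.18 ± 0.17). The ratio of Egr2 was higher in the core by only 0.14, a difference that was not called. It lay beside a lower healthy level and no higher ischemic level in the core.

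Egr4 followed the same order, with 13.04 ± 0.14 in healthy core, 13.21 ± 0.06 in healthy penumbra, 14.71 ± 0.07 in ischemic core and 15.06 ± 0.25 in ischemic penumbra. The step between the healthy pieces, 0.18 ± 0.20, was within the spread over dyes, and that between the ischemic pieces was 0.35 ± 0.32. Egr3 spanned 6.66 ± 0.01 in healthy penumbra to 6.95 ± 0.01 in ischemic core. Its 2 middle tissues, ischemic penumbra and healthy core, differed by 0.01 ± 0.02, within their spread. The core piece of Egr3 exceeded the penumbra piece by 0.16 in healthy and 0.14 in ischemic tissue, about as much as ischemic exceeded healthy tissue.

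Nr4a1 was at 13.96 ± 0.28 in healthy penumbra, 14.10 ± 0.27 in healthy core, 15.54 ± 0.08 in ischemic core and 15.60 ± 0.17 in ischemic penumbra. The ischemic pieces differed by 0.06 ± 0.10, within their spread. Nr4a3 was at 6.02 ± 0.06 and 6.14 ± 0.03 in healthy core and penumbra, where it was not well above background. In ischemic core and penumbra it was at 6.43 ± 0.09 and 6.54 ± 0.08, a step of 0.12 ± 0.17 that was within its spread.

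Nr4a2 was the 1 member called between the pieces, and its level followed the piece more than the occlusion. It was at 12.45 ± 0.11 in healthy penumbra, 12.71 ± 0.10 in ischemic penumbra, 13.62 ± 0.23 in healthy core and 13.74 ± 0.26 in ischemic core. Healthy core exceeded healthy penumbra by 1.25 in Cy3 and 1.08 in Cy5, a mean of 1.17 ± 0.12 (SD over 2 dyes) or 2.25-fold. Ischemic core exceeded ischemic penumbra by 1.15 and 0.92, a mean of 1.03 ± 0.16 or 2.04-fold. The steps from healthy to ischemic tissue, compared within each dye, were 0.26 ± 0.02 in the penumbra and 0.13 ± 0.03 in the core. Nr4a2 was called higher in the core piece in both tissues, as were 0.313% of features in healthy and 0.434% in ischemic tissue, and no other member was called in either comparison, in which 0.815% and 0.912% of features were called lower. In ischemic tissue the call was marginal: it ended with Cy5 alone, at 0.92, and with Agilent's processed signals, at 0.98.

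The difference in Nr4a2 between pieces lay beside differences in regional markers. Of 5 genes listed for deep cortex and claustrum, 4 were higher in healthy core than in healthy penumbra, but 0 of the 5 were called, and the list median was 0.40 in both tissues. Their summed intensity was 13021 to 13781 in healthy core and 9848 to 10100 in healthy penumbra, and 12568 to 13682 against 11436 to 12289 in ischemic tissue. The summed intensity of the 10 striatal genes was 94144 to 113255 in healthy core and 241189 to 321333 in healthy penumbra. The part of tissue make-up in the level of Nr4a2 was not tested.

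**Figure D4:**
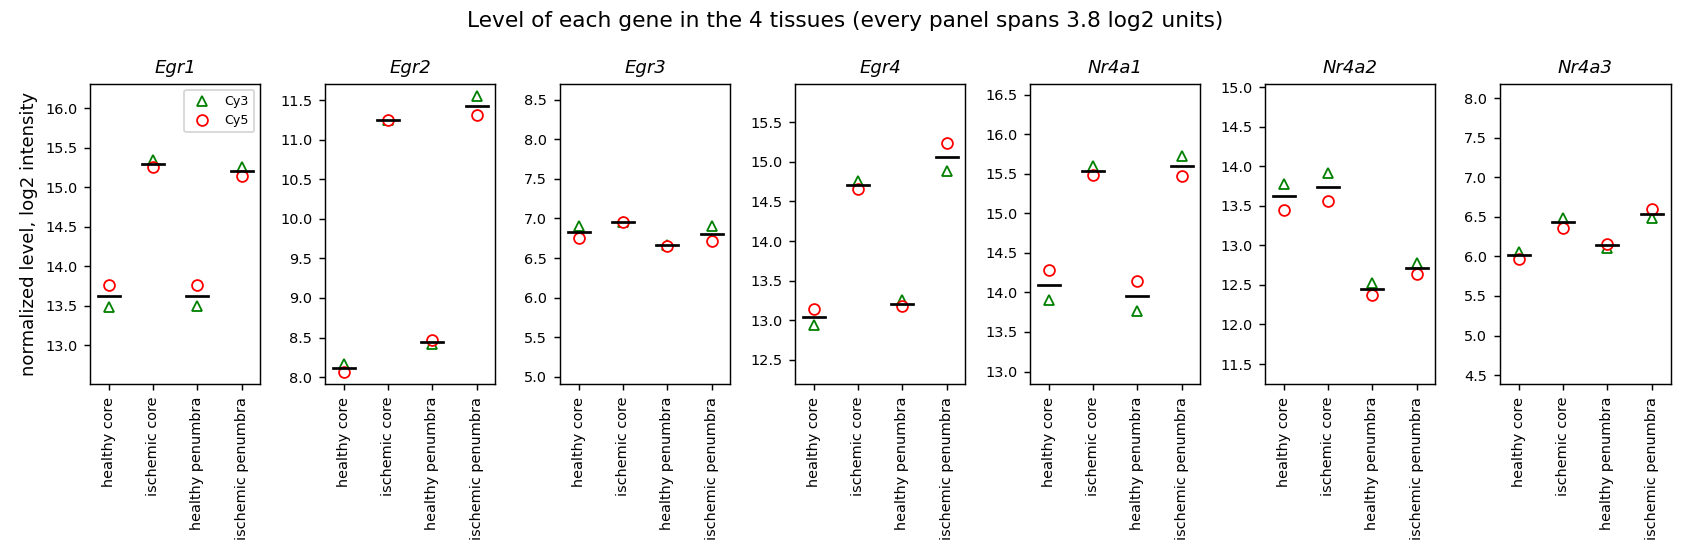
Normalized log2 intensity (vertical axis) of each gene in healthy and ischemic core and penumbra (horizontal axis), with Cy3 as green triangles, Cy5 as red circles and the mean of the dyes as a bar; every panel spans the same number of log2 units but starts at its own level. Egr1, Egr2, Egr4 and Nr4a1 step up from healthy to ischemic tissue in both regions, while Nr4a2 is higher in both core tissues.

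In whole tissue, fewer cells of a type and less RNA per cell cannot be told apart. Of 5 neutrophil markers on the array, 3 were called higher in ischemic tissue in each region (S100a8, S100a9 and Retnlg), and the ratios of the 5 ran from 0.33 to 2.49 for core and from 0.28 to 1.88 for penumbra. Their summed intensity was 2637 to 2714 in healthy core and 13262 to 14501 in ischemic core, and 3264 to 3527 and 10301 to 13475 in the penumbra. In the penumbra other lists also lay above 0. All 8 choroid plexus genes did, with a median of 0.67 and a summed intensity of 23186 to 24729 in healthy and 36600 to 39662 in ischemic penumbra, and 0 were called. All 6 meningeal genes did, with a median of 0.46, sums of 10453 to 10603 and 14967 to 15449, and 0 called. All 5 thalamic genes did, with a median of 0.45 and sums of 4670 to 5867 and 7975 to 8771, and Prkcd was called higher at 1.21 ± 0.11. The means of Slc17a6 (0.45 ± 0.55), Lef1 (0.14 ± 0.20) and Calb2 (0.15 ± 0.18) did not exceed their SDs. In the core the medians of these 3 lists were 0.01, -0.11 and -0.08. The neutrophil receptor Cxcr2 was not well above background in either healthy tissue. Of the 6 neuron markers 0 were called, with medians of -0.11 and -0.16, and of the 6 microglia markers 0 were called, with medians of -0.02 and 0.02. The part of these cell types and of tissue make-up in the ratios of Egr1, Egr2, Egr4 and Nr4a1 was not tested.

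Genes that act on or with these factors were set beside them, from lists chosen with earlier results of these data known. Of 7 partners and cofactors, 0 were called in either region, with medians of -0.01 in the core and 0.07 in the penumbra. Nab1 and Nab2, corepressors that bind Egr proteins, were at 0.12 and 0.33 in the core, then 0.14 and 0.07 in the penumbra; the 2 penumbra arrays of Nab2 were at 0.33 and -0.19, on opposite sides of 0. Both were chosen outside the naming rule, for their known binding. Rxrb and Rxrg, retinoid receptors that pair with Nr4a1 and Nr4a2, were at -0.04 ± 0.12 and 0.46 ± 0.10 in the core and -0.15 ± 0.05 and 0.08 ± 0.11 in the penumbra (SD, n = 2 arrays).

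Upstream of the family, 0 of 14 transcription factors and coactivators and 0 of 13 kinases and phosphatases were called in either region. Medians were 0.05 and 0.02 for the factors and 0.00 and -0.04 for the kinases, near the median of all features. Srf, which binds CArG boxes, was at 0.25 ± 0.07 (core) and 0.10 ± 0.13 (penumbra), and Mef2c, an activity-regulated factor, had 0.05 ± 0.07 and 0.08 ± 0.08. The bright kinase Camk2a had 0.02 ± 0.30 and -0.20 ± 0.19, and the calcineurin subunit Ppp3ca 0.03 ± 0.30 and -0.20 ± 0.32. These are transcript levels and say nothing of phosphorylation, by which most of these proteins are controlled.

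Of the genes listed as possible targets of Egr factors, 1 of 16 was called in the core and 1 of 17 in the penumbra, the same gene, Arc. Arc, which regulates glutamate receptor removal at synapses and is also an immediate early gene, stood at 2.40 ± 0.08 in the core (5.27-fold, SD, n = 2 arrays) and 2.27 ± 0.19 in the penumbra (4.81-fold). The list medians were 0.10 and 0.14. Cdk5r1, an activator of the kinase Cdk5, had 0.10 ± 0.13 and -0.02 ± 0.22. Sphk1, a sphingosine kinase named after its values were seen, was at 0.71 in both regions and was not called.

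Of 8 measured genes listed as possible targets of Nr4a receptors, 1 was called in each region, the neurotrophin gene Bdnf, at 1.24 ± 0.01 in the core and 1.52 ± 0.05 in the penumbra. Spp1 (osteopontin) had -0.03 ± 0.08 and 0.29 ± 0.09. The dopamine genes Th, Slc6a3 and Slc18a2, which depend on Nr4a2 in the midbrain, ran from -0.03 to 0.10 in the core and from 0.00 to 0.15 in the penumbra; these 3 were also chosen outside the rule. Medians of the list were -0.01 and 0.11.

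Among 24 other immediate early genes, 11 were called higher in the core and 10 in the penumbra, with medians of 0.91 and 0.63. The highest were Npas4, Fos and Atf3, at 4.19, 3.34 and 3.21 in the core and 3.71, 3.02 and 2.99 in the penumbra. Egr2 lay just below these 3 in the core, and level with Atf3 in the penumbra. Outside the Nr4a family, 0 of 31 nuclear receptors measured in the core and 0 of 30 in the penumbra were called, with medians of 0.03 and -0.06 and a highest ratio of 0.56. The bright receptor genes Thra and Nr2f6 were at 0.03 ± 0.28 and 0.03 ± 0.10 in the core, and -0.11 ± 0.21 and -0.05 ± 0.12 in the penumbra.

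**Figure D5:**
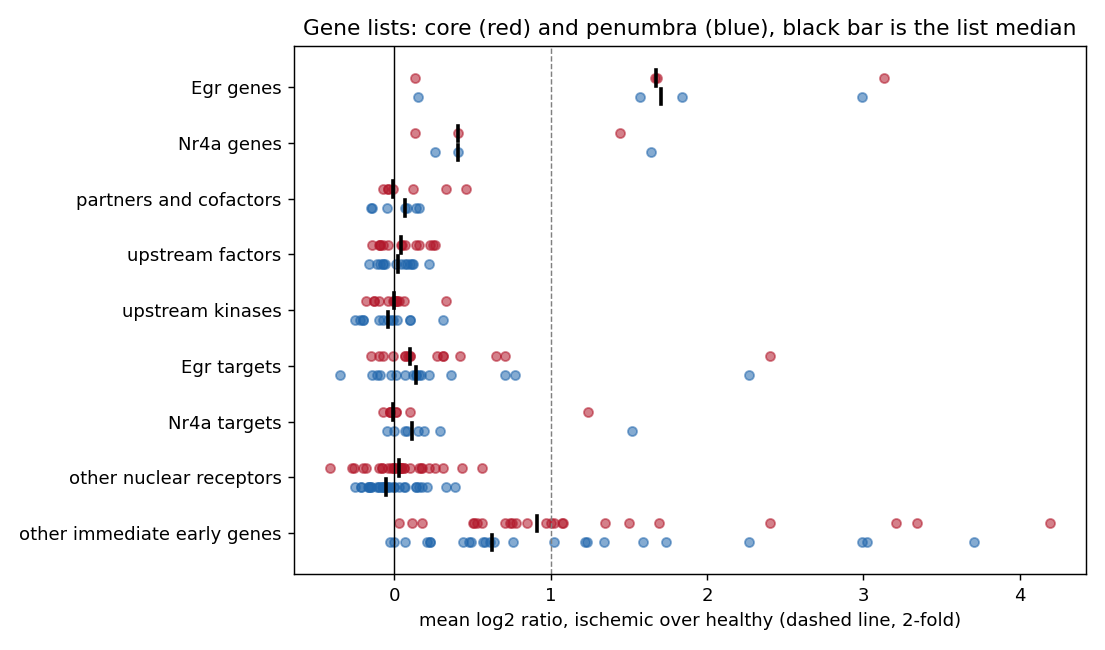
Mean log2 ratio of ischemic over healthy tissue (horizontal axis) of each measured gene in 9 lists (vertical axis), with core in red, penumbra in blue, the list median as a black bar and 2-fold as a dashed line. The partners, upstream factors, upstream kinases and other nuclear receptors all lie left of the line, while some members of the Egr, Nr4a and other immediate early lists, Arc and Bdnf lie to its right.

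The genes most like each member were those with the smallest root mean square difference over 8 channel values (4 arrays, 2 dyes), each value centred on the mean of its gene in that dye, among 13355 named genes well above background in all 4 tissues. Nearest to Egr1 were Dusp6, a phosphatase of MAP kinases, at 0.07 log2, and Fosb, an AP-1 subunit, at 0.08. Nearest to Egr2 were Atf3 at 0.11 and Fos at 0.14. Nearest to Nr4a1 were Egr1 itself at 0.10 and Nfil3, a leucine zipper repressor, at 0.12. Egr4 had no such close match: Gprc5c, an orphan receptor, lay at 0.15 and Fosb at 0.19.

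For Egr3 and Nr4a2, which were not called, the nearest genes were of other kinds. Egr3 lay 0.02 from Cdk7 and from Mrps34, as flat genes do. Nr4a2 lay 0.10 from Ankrd34c and 0.11 from Whrn, which had ratios of -0.10 and -0.02 in the core and 0.20 and 0.09 in the penumbra. No nearest gene is given for Nr4a3, because 4 of its 8 channel values, the healthy ones, were not well above background.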

How the data were processed

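The 4 deposited scanner files hold spot intensity in Cy3 and Cy5 and, per the file headers, come from Agilent Feature Extraction 11.0.1.1, 1 slide and 1 scan session, which leaves no batch to test. The deposited series table holds log10 ratios, which match processed Cy5 over processed Cy3 within 5e-06; its column medians, in replicate order 1 to 4, were -0.0215, 0.00516, -0.0199 and -0.0115.

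Median spot signals (the files have 0 columns of mean signal) had background removed by normexp (offset 50), then within-array loess (limma 3.58.1 under R 4.3.3), with control and outlier spots at weight 0, and were turned to ischemic over healthy. Spots of a probe were averaged, and a gene with several probes took its brightest. Probes were kept where 1 of the 2 tissues compared, or both, stood well above background on every array of it. Levels were single channels after loess and Aquantile. Of 41174 probes, 23374 were named by unversioned accession through a GRCm38.p6 table, giving 33269 features.

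The members and gene lists were chosen with earlier results of these data known. All 7 members are named; from other lists, up to 4 called genes per region by size, or the brightest up to 2 in all where fewer than 2 were called, and for each member the 2 nearest genes (not printed for Nr4a3). Nab1, Nab2, Th, Slc6a3, Slc18a2, Sphk1 and the receptors named in the closing section fall outside this rule. The calls were tested on simulated data in which only bright probes were changed, so that test does not cover dim probes such as those of Egr3 and Nr4a3. Python 3.11.15, pandas 2.3.3, numpy 2.4.6 and matplotlib 3.10.9 were used. Alternatives were processed signals, median centring, a normexp offset of 10, no filter on dim probes, the mean over probes, spike-in centring, limma over arrays, single dyes and leaving out each array.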

Additional observations from a re-analysis of the deposited data

How the results depend on the processing

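Egr1, Egr2, Egr4 and Nr4a1 were called higher in both regions under every alternative run but 1. Spike-in centring left 3 members in the core, without Nr4a1 (0.97). Lifting the filter on dim probes and taking the mean over probes could not change these calls. Each of these genes has 1 probe, well above background in all channels. Processed signals gave 5 in each region by adding Nr4a3. Leaving out each array in turn left 4 to 4 members called in each region and 0 to 0 in the difference between regions, where dye bias no longer cancels. The call of Nr4a2 in ischemic core over ischemic penumbra ended (0 members) with processed signals and with Cy5 alone. Its call in healthy tissue remained under all 5 alternatives, though the lifted filter and the mean over probes could not change it. An offset of 10 put Nr4a3 at 0.90 and 0.82. Spike-in centring put Egr3 at -0.35 and -0.31, Nr4a2 at -0.35 and -0.20 and Nr4a3 at -0.07 and -0.06 (core, penumbra). Over all features, 76 were called higher and 0 lower in the core, and 60 and 1 in the penumbra; processed signals gave 230 and 15, and 189 and 30, spike-in centring 31 and 29, and 29 and 41, and a normexp offset of 10 gave 115 and 0 in the core. Leaving out core replicate 1 gave 83 and 12 in the core and core replicate 2 93 and 0; leaving out penumbra replicate 3 gave 75 and 11 in the penumbra and replicate 4 77 and 1. The difference rule called 10 features higher and 5 lower in the core, or 93 and 86 with processed signals, 20 and 16 with the smaller offset, 2 and 0 with limma, and 12 and 23, 17 and 8, 13 and 11, and 13 and 17 with replicates 1 to 4 left out in turn. Healthy core over healthy penumbra had 78 higher and 203 lower, or 205 and 705 with processed signals and 87 and 372 with Cy5 alone; ischemic core over ischemic penumbra had 108 and 227, or 267 and 792 with processed signals and 135 and 408 with Cy3 alone. The causes were not tested. No paired analysis was possible because the core and penumbra arrays share no replicate number in the labels. Signal over background limits Egr3 and Nr4a3, and the number of arrays limits all values.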

Other observations

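Among the nuclear receptors outside the Nr4a family, some followed the dissected piece in the way Nr4a2 did, and others the opposite way. Rorb, a retinoid-related orphan receptor of cortical neurons, was called higher in the core piece, by 1.51 ± 0.22 in healthy tissue (SD over 2 dyes) and 1.41 ± 0.07 in ischemic tissue. Rarb and Rxrg, retinoid receptors prominent in striatum, were called lower in the core piece. Rarb differed by -1.96 ± 0.09 and -1.84 ± 0.09, and Rxrg by -2.39 ± 0.05 and -2.01 ± 0.06. Pparg was called higher in ischemic core than in ischemic penumbra, by 1.36 ± 0.09. In healthy tissue it differed the same way, by 0.75 ± 0.10, and was not called. These genes were named after their values were seen.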
